A study of Mus musculus with 10 samples.

Results

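Smchd1 is a repressor that binds chromatin and helps to silence the inactive X chromosome, imprinted genes and gene clusters on autosomes. Outside those clusters, 8 autosomal genes stood out in some count-based comparisons of Smchd1 mutant and wild-type facial tissue but not in others: Bet1, Calu, Dpy19l4, Rnpc3, Crlf2, Arhgef10l, Lhpp and Gm3604. They are 8 of the 35542 genes in the count table, each matched by its symbol, and all 8 passed the filter on low counts. The members were picked on the MD1 against WT comparison in these same 10 libraries, so that comparison describes them here and tests nothing. The 2 lower genes are Arhgef10l and Lhpp, and the other 6 had higher means in MD1 than in WT.

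RNA was sequenced from the frontonasal prominence, the embryonic tissue that gives rise to the forehead and nose, dissected at E10.5 from FVB/NJ mice. MD1 libraries came from embryos homozygous for MommeD1 (Smchd1 MD1/MD1, n = 4), a nonsense allele found in a mutagenesis screen, and WT libraries from Smchd1 WT/WT embryos (n = 6). By label the MD1 libraries are 2 males (replicates 2 and 3) and 2 females (replicates 1 and 4), and the WT libraries are 3 males (replicates 1 to 3) and 3 females (replicates 4 to 6). The labels do not say whether each library is 1 embryo, and the p-values cover only the spread between these samples.

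Depth ran from 4195119 counts (MD1 male replicate 3) to 20661292 in MD1, and from 9225452 to 24125084 in WT. Smchd1 itself lay between 55.4 and 99.9 CPM (counts per 1000000 of the scaled library) in MD1, against 229 to 265 CPM in WT. The library labelled MD1 female replicate 1 carried 88.2 CPM of the Y-linked Ddx3y, inside the 78.2 to 91.4 CPM of WT males. It also carried 204 CPM of Xist, between the 0.60 to 2.08 CPM of WT males and the 2594 to 2695 CPM of WT females. Its sex label therefore goes against its Y-linked reads, while its Xist level matched neither sex. MD1 female replicate 4 stood apart in the hypoxia genes (15300 CPM summed over 18 of 18 genes, against 1616 to 3509 CPM in WT) and in the erythroid genes (20780 CPM over 12 of 12 genes, against 3115 to 4528 CPM in WT). Defining genes of facial mesenchyme were present in all libraries, with summed levels of 1100 to 1817 CPM in MD1 and 1535 to 2174 CPM in WT. MD1 female replicate 4 (1100 CPM) and MD1 male replicate 3 (1494 CPM) lay below every WT library. MD1 replicates 1 and 2 lay inside the WT range.

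Known roles put these genes in different parts of the cell. Bet1, Calu and Dpy19l4 belong to the secretory pathway, in which proteins enter the endoplasmic reticulum (ER), are modified there and travel in vesicles to the Golgi. Rnpc3 belongs to the minor spliceosome, which removes a rare class of introns. Arhgef10l and Crlf2 act in signalling, Lhpp is a phosphatase, and Gm3604 has the reading frame of a zinc finger protein. None of them lies in a gene cluster known to need Smchd1.

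Promoter sequences are shown for the genes with the largest MD1 over WT ratios, Crlf2 and Gm3604, and for Rnpc3, which lies in the middle of the 8 in level. Their CpG content is of interest because Smchd1 is known for its part in CpG island methylation on the inactive X. The letters are the longest run of bases, within 250 bases upstream of the annotated start, that lies in no annotated exon. They read 5′ to 3′ on the gene's own strand, with each CpG in capitals (RefSeq, GRCm38.p6). Crlf2 is shown for chr5:109558994-109559243, Rnpc3 for chr3:113630150-113630399 and Gm3604 for chr13:62383345-62383424, all on the minus strand.
Crlf2: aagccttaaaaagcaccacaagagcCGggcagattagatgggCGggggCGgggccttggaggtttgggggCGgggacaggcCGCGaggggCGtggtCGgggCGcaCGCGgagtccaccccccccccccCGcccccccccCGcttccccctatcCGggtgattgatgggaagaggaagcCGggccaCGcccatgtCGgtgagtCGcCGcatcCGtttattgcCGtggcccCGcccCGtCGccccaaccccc
Rnpc3: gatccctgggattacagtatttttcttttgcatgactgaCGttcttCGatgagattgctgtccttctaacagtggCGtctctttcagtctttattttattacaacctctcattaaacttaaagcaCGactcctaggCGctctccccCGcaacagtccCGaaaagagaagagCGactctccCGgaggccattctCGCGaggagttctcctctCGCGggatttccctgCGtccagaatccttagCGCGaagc
Gm3604: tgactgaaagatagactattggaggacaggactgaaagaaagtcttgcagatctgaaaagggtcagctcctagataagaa

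The Crlf2 stretch holds 24 CpG in 250 bases and the Rnpc3 stretch 16 in 250. The 80 bases of Gm3604 hold 0, but they lie at the far end of its window and do not adjoin its start. Counted over the whole 300-base window around the start, the numbers of CpG were 31 for Crlf2, 30 for Calu, 22 for Rnpc3, 14 for Bet1, 7 for Arhgef10l and 7 for Gm3604, against a median of 7 over 32851 windows. As many CpG as in the Crlf2 window are found in 10.56% of all windows, as many as in the Rnpc3 window in 23.1%, and as many as in the Gm3604 window in 52.1%. The 6 genes with a window thus ran from the middle of all promoters to their CpG-rich end, and genes of both kinds were among those higher in MD1. Dpy19l4 and Lhpp had no window in the table.

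The level of each gene per unit of length was compared in WT, where it does not depend on the mutation. On the log2 RPKM scale (reads per kilobase and per 1000000 reads), the WT means in descending order were 6.43 ± 0.068 for Calu, 3.22 ± 0.054 for Dpy19l4, 3.09 ± 0.13 for Bet1, 2.85 ± 0.10 for Arhgef10l, 2.84 ± 0.078 for Rnpc3, 1.95 ± 0.17 for Lhpp, 0.31 ± 0.30 for Crlf2 and −1.17 ± 0.63 for Gm3604 (SD, n = 6). Calu was above 98.2% of the tested genes and Gm3604 above 9.5%. The libraries of Dpy19l4 and Bet1 overlapped, as did those of Bet1 and Arhgef10l and of Arhgef10l and Rnpc3, so their order is within the spread. The other neighbours in the order did not overlap in any WT library.

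Bet1 is a SNARE, one of the proteins that fuse vesicles with membranes between the ER and the Golgi. It lies on chromosome 6 (4076899 to 4086972, minus strand, GRCm38) and shares no exon base with another gene. MD1 libraries had 43.7, 49.5, 46.9 and 56.4 CPM in the order of replicates 1 to 4, and the WT libraries ran from 30.9 through a median of 35.2 to 40.7 CPM. Every MD1 library lay above every WT library, and MD1 female replicate 4 was the highest. The means were 49.1 ± 5.4 CPM in MD1 (SD, n = 4) and 35.4 ± 3.3 CPM in WT (SD, n = 6), a ratio of 1.39 and a log2 fold change of 0.47 ± 0.10 (SE). Without MD1 replicate 4 the log2 fold change was 0.40.

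The SNAREs and tethers that act with Bet1 did not share its direction as a list. Of 8 tested, 2 were higher and 6 lower in MD1, 0 passed the threshold, and the median log2 fold change was −0.04, beside 0.003 over all 15452 tested genes. The lowest unadjusted p-values belonged to Gosr2, a Golgi SNARE, with 95.2 ± 21 CPM in MD1 and 112 ± 6.1 CPM in WT (edgeR adjusted p = 0.522), and to Ykt6, a SNARE with a lipid anchor, with 131 ± 46 CPM in MD1 and 159.6 ± 10 CPM in WT (edgeR adjusted p = 0.607).

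Calu encodes calumenin, a calcium-binding protein of the CREC family that resides in the ER and restrains vitamin K dependent carboxylation. It lies on chromosome 6 as well (29348069 to 29377110, plus strand). MD1 libraries had 527, 509, 529 and 539 CPM, and WT libraries ran from 428 through a median of 436 to 475 CPM. Each MD1 library was above each WT library, and Calu had the narrowest spread of the 8 genes in MD1, with a coefficient of variation of 2.38%. The means were 526 ± 13 CPM in MD1 and 447 ± 21 CPM in WT, a ratio of 1.18 and a log2 fold change of 0.23 ± 0.061 (SE), the smallest of the 8. Its exons share 397 bases (8.51%) with Opn1sw on the opposite strand, which had 0 to 6 reads per library against 2188 or more for Calu.

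Among 6 CREC and carboxylation genes, 5 were higher and 1 lower in MD1, their median was 0.16 on the log2 scale, and 0 passed the threshold. Vkorc1, which recycles vitamin K, had 15.0 ± 5.1 CPM in MD1 and 11.3 ± 1.1 CPM in WT (edgeR adjusted p = 0.515). Rcn3, a CREC protein of the ER, had 127 ± 55 CPM in MD1 and 97.2 ± 9.4 CPM in WT (edgeR adjusted p = 0.518). Their MD1 standard deviations were more than 4 times those in WT, unlike that of Calu.

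Dpy19l4 is a member of the DPY19 family, whose better known relatives add mannose to tryptophan residues of proteins in the ER. It lies on chromosome 4 (11261315 to 11322137, minus strand), and 194 exon bases (2.40%) are shared with the lincRNA Gm26663 on the other strand, which had 6 to 31 reads per library. MD1 libraries had 96.3, 115.6, 103 and 103 CPM, and WT libraries ran from 78.8 through 84.4 to 86.7 CPM. The lowest MD1 library was above the highest WT library, and the WT spread was narrow, with a coefficient of variation of 3.72% that was below that of all but 3.5% of tested genes. The means were 104.5 ± 8.0 CPM in MD1 and 83.6 ± 3.1 CPM in WT, a ratio of 1.25 and a log2 fold change of 0.32 ± 0.069 (SE).

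Of 5 tested genes for DPY19 relatives and for the enzyme that makes their mannose donor, 3 were higher and 2 lower, with 0 past the threshold. Dpm1, the catalytic subunit of that enzyme, had 48.2 ± 7.6 CPM in MD1 and 43.0 ± 2.8 CPM in WT (edgeR adjusted p = 0.556). The relative Dpy19l3 had 76.8 ± 14 CPM in MD1 and 69.8 ± 6.6 CPM in WT (edgeR adjusted p = 0.674).

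Rnpc3 encodes a protein of the U11/U12 particle that recognizes minor introns. It lies on chromosome 3 (113605067 to 113630149, minus strand). MD1 libraries had 60.2, 71.8, 71.3 and 72.7 CPM, and WT libraries ran from 47.3 through 53.3 to 57.2 CPM. The groups did not overlap, but the library labelled MD1 female replicate 1 lay 11.1 CPM under the next MD1 library and 3.0 CPM above the highest WT library. The means were 69.0 ± 5.9 CPM in MD1 and 52.8 ± 3.2 CPM in WT, a ratio of 1.31 and a log2 fold change of 0.39 ± 0.082 (SE).

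Rnpc3 shares 1128 of its 6627 exon bases with Amy1, the salivary amylase gene, on the same strand, and 75-base reads inside them could be counted for either gene. Amy1 had 17.2 ± 2.9 CPM in MD1 and 12.2 ± 1.3 CPM in WT, a log2 fold change of 0.50 ± 0.14 (SE) that did not pass the edgeR test (adjusted p = 0.496). When the whole Amy1 level was subtracted from that of Rnpc3, an alternative chosen after seeing the data, MD1 libraries had 44.1, 57.6, 53.7 and 51.7 CPM, and WT libraries ran from 37.1 to 43.3 CPM. The groups still did not overlap after this subtraction, and the smallest gap between them was 0.80 CPM.

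The other proteins of the U11/U12 particle went in different directions. Of 6 tested, 2 were higher and 4 lower, and the median was −0.02 on the log2 scale. None passed the threshold, and 3 had an unadjusted p under 0.05, beside 9.79% of all tested genes. Snrnp48 had 106 ± 28 CPM in MD1 and 80.1 ± 9.0 CPM in WT (edgeR adjusted p = 0.496), whereas Zmat5 had 8.77 ± 1.1 CPM in MD1 and 11.4 ± 0.87 CPM in WT (edgeR adjusted p = 0.496).

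Crlf2 encodes the receptor subunit that binds the cytokine TSLP, and pairs with the interleukin 7 receptor chain Il7r. It is a short gene on chromosome 5 (109554709 to 109558993, minus strand), whereas its human counterpart lies in the pseudoautosomal region of the sex chromosomes. MD1 libraries had 6.56, 1.99, 4.83 and 14.1 CPM, or 138, 20, 20 and 185 reads. WT libraries ran from 1.61 through 2.03 to 2.74 CPM, with 15 to 51 reads each. The groups overlapped: MD1 male replicate 2 sat inside the WT range, and the other 3 MD1 libraries were above it. The means were 6.86 ± 5.2 CPM in MD1 and 2.08 ± 0.44 CPM in WT, a ratio of 3.30 and a log2 fold change of 1.75 ± 0.40 (SE), the largest of the 8.

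The size of the Crlf2 difference depended on which MD1 libraries entered. It was 1.13 without MD1 replicate 4, 2.06 without MD1 replicate 2, and 0.60 without both libraries labelled MD1 female. The libraries in which Crlf2 was highest, MD1 female replicate 4 and the library labelled MD1 female replicate 1, were also those in which the hypoxia list (3.37 and 1.09 log2 units above the WT mean) and the yolk sac endoderm and liver list (2.86 and 5.08 log2 units) scored highest among MD1 libraries. MD1 male replicate 3, with 4.83 CPM of Crlf2, scored −0.39 and −1.62 in those lists, and WT male replicate 1, with 1.61 CPM, scored 1.11 in the hypoxia list. The 10 endothelial genes summed to 587, 436, 569 and 994 CPM in MD1 replicates 1 to 4, against 420 to 545 CPM in WT, so the 3 MD1 libraries with Crlf2 above the WT range were also above it in this list, and MD1 male replicate 2 was inside it in both. The part of these tissues or responses in the Crlf2 level was not tested, and in bulk tissue a change in cell numbers and a change of RNA per cell cannot be told apart.

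Immune cells are a usual site of Crlf2 expression, and genes of these cells were detected in every library. Their part in the Crlf2 level was not tested. The 13 macrophage, dendritic and lymphoid genes summed to 22.5 to 29.7 CPM in MD1 and 26.3 to 36.0 CPM in WT. Il7r had 0 reads in every MD1 library and in 5 of 6 WT libraries, which allows up to 3 reads in each, and Tslp had 0 to 3 reads in MD1 and 0 to 5 in WT. Of the TSLP receptor signalling genes, 4 of 6 were tested, with 3 higher, 1 lower and 0 past the threshold. Stat5b, a transcription factor downstream of the receptor, had 48.1 ± 15 CPM in MD1 and 42.4 ± 3.9 CPM in WT (edgeR adjusted p = 0.654). Its relative Stat5a had 3.51 ± 0.49 CPM in MD1 and 3.05 ± 0.54 CPM in WT (edgeR adjusted p = 0.681).

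Arhgef10l is a guanine nucleotide exchange factor, a protein that switches on small GTPases. It lies on chromosome 4 (140514485 to 140666012, minus strand) and shares no exon base with another gene. MD1 libraries had 36.1, 31.7, 36.3 and 34.0 CPM, and WT libraries ran from 42.2 through 46.8 to 48.6 CPM. Every MD1 library lay below every WT library, with coefficients of variation of 6.21% in MD1 and 6.14% in WT. The means were 34.5 ± 2.1 CPM in MD1 and 45.7 ± 2.8 CPM in WT, a ratio of 0.755 and a log2 fold change of −0.41 ± 0.083 (SE).

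Lhpp encodes a phosphatase that removes phosphate from phosphohistidine, phospholysine and pyrophosphate. It lies on chromosome 7 (132610638 to 132706420, plus strand), and no exon base is shared with its overlapping neighbor Fgfr2. MD1 libraries had 7.70, 5.49, 6.53 and 4.33 CPM, or 162, 55, 27 and 57 reads, and WT libraries ran from 8.63 through 10.7 to 11.7 CPM. The groups did not overlap, and the gap between the highest MD1 and the lowest WT library was 0.93 CPM. The means were 6.01 ± 1.4 CPM in MD1 and 10.4 ± 1.2 CPM in WT, a ratio of 0.577 and a log2 fold change of −0.79 ± 0.18 (SE). It was lowest in MD1 female replicate 4, and without that library the log2 fold change was −0.64. Of 6 related histidine kinases, histidine phosphatases and pyrophosphatases, 2 were higher and 4 lower, with 0 past the threshold. Nme2 had 115 ± 12 CPM in MD1 and 127 ± 8.5 CPM in WT (edgeR adjusted p = 0.563), and Nme1 had 169 ± 33 CPM in MD1 and 190.0 ± 12 CPM in WT (edgeR adjusted p = 0.578).

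Gm3604 lies on chromosome 13 (62368328 to 62383177, minus strand). Its longest reading frame of 559 codons holds 14 matches to the C2H2 zinc finger pattern, a fold that many DNA-binding repressors carry in tandem. MD1 libraries had 2.85, 3.69, 5.07 and 2.59 CPM, or 60, 37, 21 and 34 reads, and WT libraries ran from 0.66 through 1.10 to 2.26 CPM, with 7 to 28 reads. The groups did not overlap in CPM, but WT male replicate 1 (2.26 CPM) came within 0.33 CPM of MD1 female replicate 4, and on the log2 RPKM scale they did overlap. The means were 3.55 ± 1.1 CPM in MD1 and 1.23 ± 0.58 CPM in WT, a ratio of 2.88 and a log2 fold change of 1.49 ± 0.33 (SE). It was highest in MD1 male replicate 3, the shallowest library, where 5.07 CPM rests on 21 reads.

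Genes that share short stretches with Gm3604 could trade some reads with it. Of its 75-base words, 4.67% occur in other genes, most often in 6720489N17Rik and Zfp934. 6720489N17Rik had 11.4 ± 4.1 CPM in MD1 and 14.9 ± 1.8 CPM in WT, and Zfp934 had 12.6 ± 1.8 CPM in MD1 and 10.9 ± 1.7 CPM in WT, neither past the edgeR threshold (adjusted p = 0.540 and 0.601). The corepressors that many zinc finger repressors recruit did not pass either, with 1003 ± 179 CPM of Trim28 in MD1 and 1087 ± 51 CPM in WT (edgeR adjusted p = 0.672), and 174 ± 6.4 CPM of Setdb1 in MD1 and 176 ± 4.7 CPM in WT (edgeR adjusted p = 0.927).

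**Figure D1:**
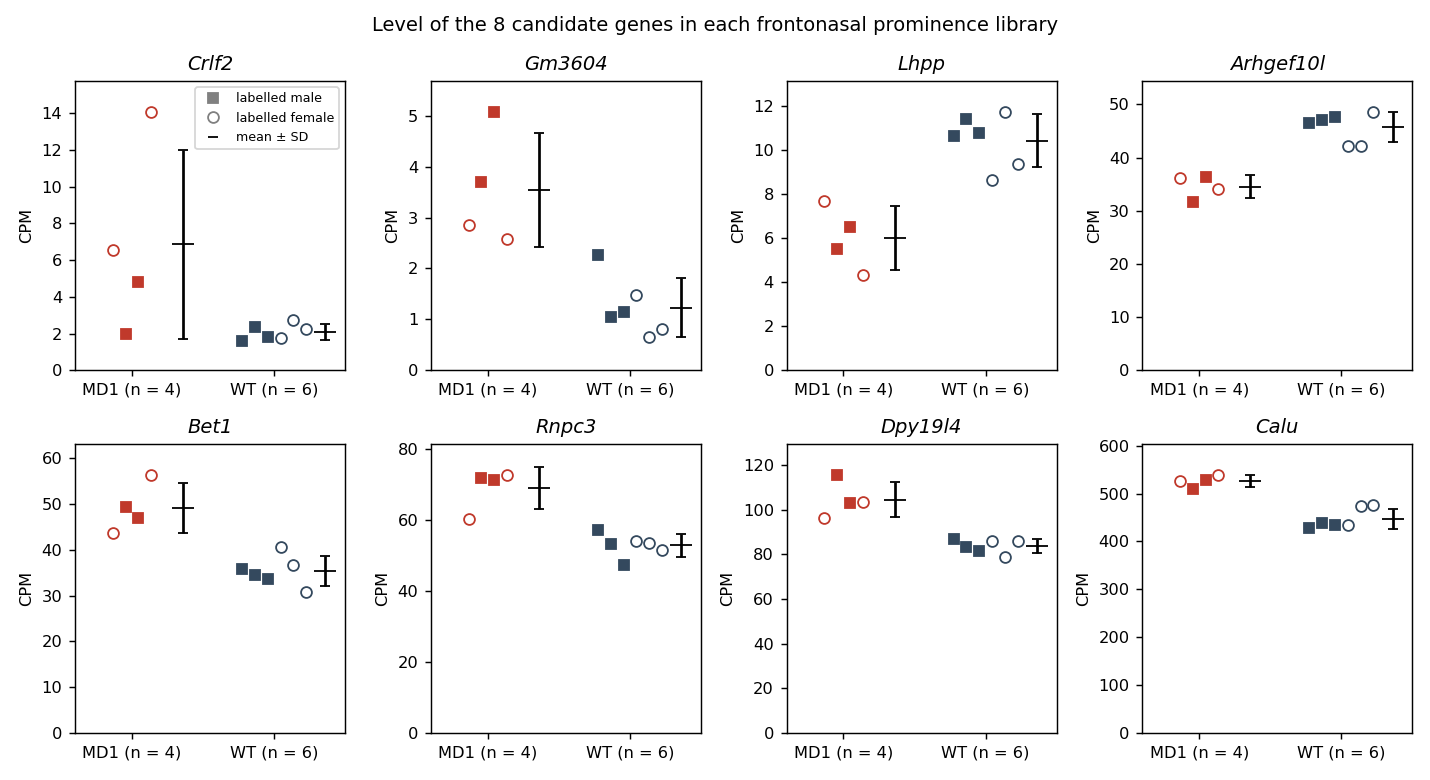
Level of each gene in CPM (vertical axis, from 0) in each MD1 library (left, n = 4) and each WT library (right, n = 6), with mean ± SD beside the points. Squares are libraries labelled male and open circles those labelled female. In 7 genes the groups do not overlap, and in Crlf2 MD1 male replicate 2 (1.99 CPM) lies inside the WT range.

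Across the 8 genes, MD1 and WT libraries did not overlap in CPM in 5 higher and 2 lower members. Over all tested genes, 0.99% did not overlap with MD1 higher and 1.06% with MD1 lower. Since the 8 were selected on this comparison, nothing is read from that contrast. On the log2 RPKM values as deposited, which are scaled differently, Bet1, Rnpc3, Arhgef10l and Lhpp did not overlap, while Calu, Dpy19l4, Crlf2 and Gm3604 did. The share over all genes was not worked out on this scale, so this is a description only. In CPM, MD1 female replicate 4 was the MD1 library farthest from the WT mean in 5 members. MD1 male replicate 2 was farthest in 2, MD1 male replicate 3 in 1, and the library labelled MD1 female replicate 1 in 0. Thus 1 library, which also stood apart in hypoxia and erythroid genes, was the most displaced in most members on the CPM scale. On the log2 RPKM scale it was instead the MD1 library nearest to the WT mean in Calu, Rnpc3, Dpy19l4 and Gm3604. Its Calu value there was 6.427, beside a WT mean of 6.434. Leaving that library out moved the value of no member but Crlf2 by over 1.5 times.

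**Figure D2:**
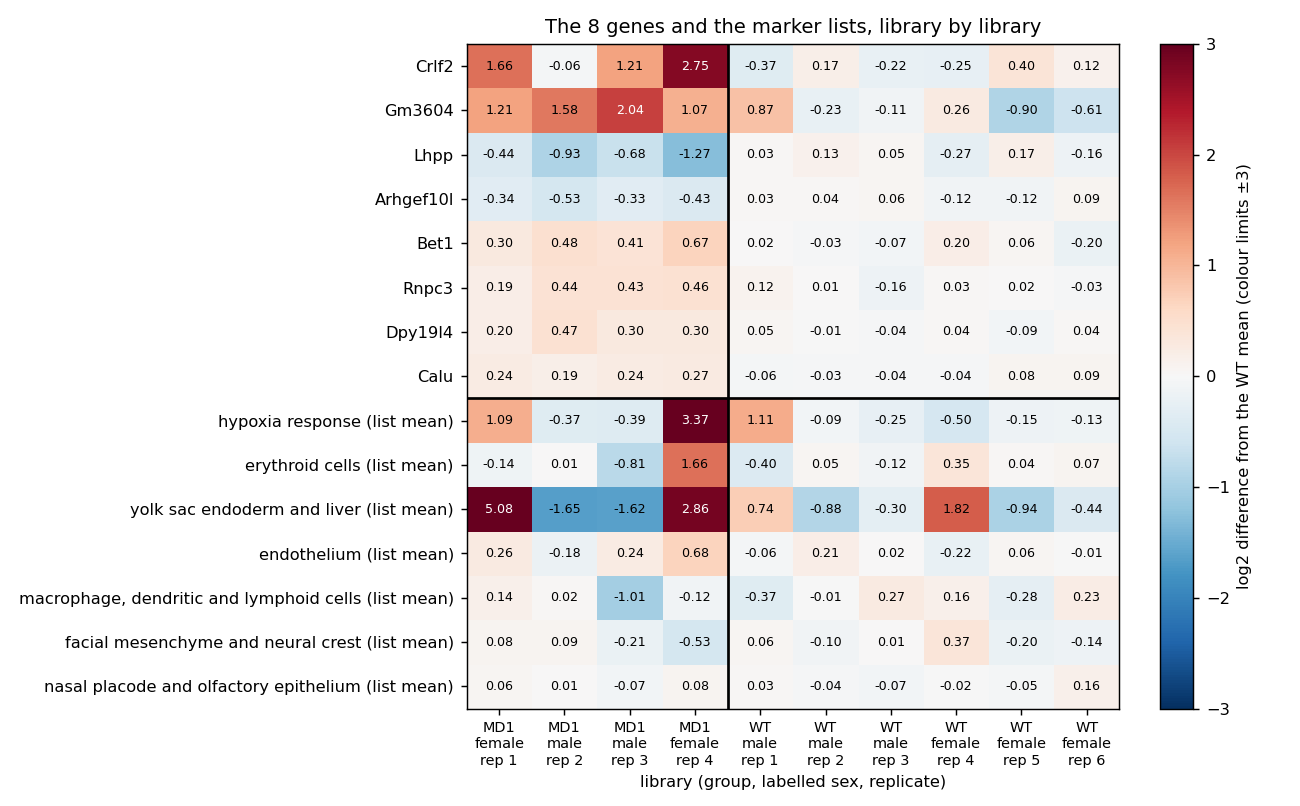
Difference of each library (columns, MD1 left of the line, WT right) from the WT mean in log2 units, for the 8 genes (upper rows, log2 ratio of CPM) and for the marker lists (lower rows, mean over genes of log2 CPM). MD1 female replicate 4 shows the highest Crlf2 (2.75) and the highest hypoxia score (3.37), while Calu and Arhgef10l differ little between MD1 libraries.

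Whether a member passed the threshold depended on the tool. With the quasi-likelihood test of edgeR, 0 of 8 members passed (adjusted p = 0.306 to 0.496). Over all genes 0.0712% passed as higher and 0.00647% as lower. The unadjusted p was under 0.05 in 8 of 8 members and in 9.79% of all genes. With DESeq2, 6 members passed as higher and 2 as lower (adjusted p = 0.00333 to 0.0262), beside 0.291% of genes higher and 0.0388% lower, and the 8 stood between ranks 16 and 27 of its 51 calls. With the exact test of edgeR, Gm3604 (adjusted p = 0.00856) and Crlf2 (adjusted p = 0.0235) passed as higher and 0 as lower, beside 0.188% of genes higher and 0.00647% lower. With limma-voom (0.0777% of genes in either direction) and limma on the log2 RPKM (0.0259%), 0 members passed, and 8 and 7 of the 8 had an unadjusted p under 0.05.

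The estimates kept their sign in each tool. The log2 RPKM gave the lowest value for every member but Gm3604, for which it gave the highest. The median log2 fold change of all genes was also lower on that scale (−0.10, beside 0.003 with the quasi-likelihood test). Calu ranged from 0.16 on the log2 RPKM to 0.24 with DESeq2, and Gm3604 from 1.45 with limma-voom to 1.52 on the log2 RPKM. Crlf2 ranged from 1.34 on the log2 RPKM to 1.75 with the quasi-likelihood test. The members nearest to the threshold on its inner side were Crlf2 (0.0262) and Lhpp (0.0256) with DESeq2, and those nearest on its outer side were Bet1 (0.0564) and Lhpp (0.0608) with the exact test. Every gene kept its direction under each of the 22 alternatives.

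**Figure D3:**
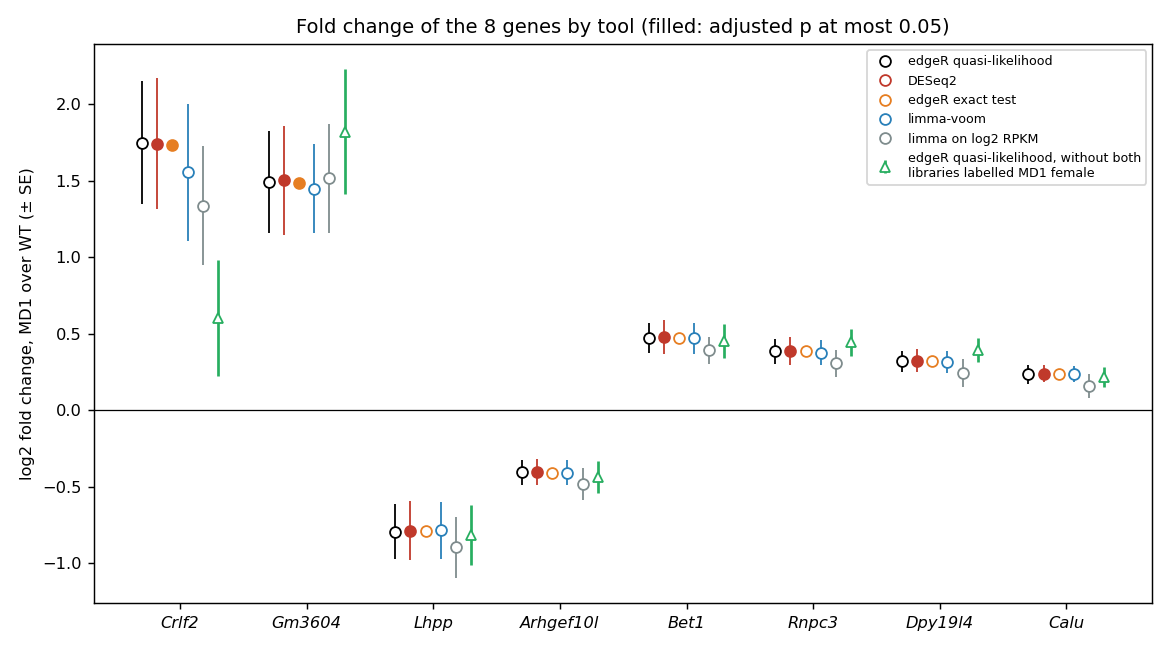
Log2 fold change of each gene, MD1 over WT, by tool (circles, bars are ± SE, which the exact test does not give), and by the quasi-likelihood test without both libraries labelled MD1 female (triangles). Filled circles passed an adjusted p of 0.05: all 8 genes with DESeq2, and Crlf2 and Gm3604 with the exact test. Without those libraries Crlf2 moves to 0.60.

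The sex of the embryo, which the choice of genes did not use, made no difference that could be detected in WT. With male over female WT libraries, 0 of 8 members passed the quasi-likelihood test (adjusted p = 0.9999 for each, unadjusted p under 0.05 in 0), beside 0.0449% of 15575 genes. With DESeq2 and limma-voom 0 passed as well, beside 0.205% and 0.032% of those genes. Gm3604 had the largest difference, with 1.48 ± 0.67 CPM in WT males and 0.980 ± 0.43 CPM in WT females (SD, n = 3 each) and a log2 fold change of 0.46 ± 0.44 (SE). Calu had 434 ± 5.0 CPM in WT males and 461 ± 24 CPM in WT females, with a log2 fold change of −0.09 ± 0.067 (SE), and for Crlf2 the values were 1.91 ± 0.38 CPM in WT males and 2.25 ± 0.50 CPM in WT females. The standard errors of 0.067 to 0.44 leave differences of that size undetected.

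The genotype difference was also set against the sex labels. Crlf2 averaged 3.41 CPM in the MD1 males against 1.91 CPM in WT males, and 10.3 CPM in the libraries labelled MD1 female against 2.25 CPM in WT females. The genotype effect of males minus that of females was −1.48 ± 0.63 (SE) for Crlf2, which did not pass (edgeR adjusted p = 0.470, unadjusted p = 0.0380). Of the 8 members 0 passed and 1 had an unadjusted p under 0.05, beside 0.0% of 16084 genes past the threshold, and DESeq2 also called 0 members. In the other 7 members this difference lay between −0.18 and 0.18. The MD1 side of the test includes the library labelled MD1 female replicate 1, which carries Y-linked reads. The other, MD1 female replicate 4, had 0.0 CPM of Ddx3y and is the library that stood apart in hypoxia and erythroid genes. The paper reports that female embryos homozygous for a Smchd1 null allele do not survive. In that library female sex and the state of the tissue cannot be told apart.

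Genes close to the members were examined next, because the known targets of Smchd1 lie in clusters that change together. Of 74 tested genes within 500 kb of a member, 39 were higher and 35 lower in MD1, 0 passed the threshold with the quasi-likelihood test, DESeq2 or limma-voom, and 10 had an unadjusted p under 0.05. Their median log2 fold change was 0.02. Over all tested genes 9.79% had an unadjusted p under 0.05, and so few passed the threshold that a count of 0 among 74 says nothing about the members.

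Beside Crlf2, the nearest tested gene on the right was 5430403G16Rik at 115.6 kb, with 5.97 ± 1.6 CPM in MD1 and 4.41 ± 0.66 CPM in WT (log2 fold change of 0.47 ± 0.20), and the nearest on the left was Fgfrl1, a decoy receptor for fibroblast growth factors, at 847.8 kb (−0.30 ± 0.16). All 5 tested neighbors of Crlf2 within 500 kb lay on the higher side, at 0.03 to 0.47. Beside Gm3604, the zinc finger gene Zfp808 at 132.2 kb had 7.82 ± 1.4 CPM in MD1 and 6.02 ± 0.95 CPM in WT (0.37 ± 0.18), and Gm48701 at 66.1 kb showed −0.04 ± 0.24. Of the 10 tested neighbors of Gm3604, 6 were higher and 4 lower, at −0.37 to 0.37.

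Arhgef10l had 9 lower and 3 higher tested neighbors of 12, their median was −0.23 on the log2 scale, and 5 were under an unadjusted p of 0.05, beside 9.79% of all tested genes. The nearest were Rcc2, a regulator of chromosome segregation, at 34.5 kb (568 ± 111 CPM in MD1, 685 ± 32 CPM in WT, log2 fold change of −0.27 ± 0.11) and Igsf21 at 267.7 kb (−0.01 ± 0.39). The MD1 spread of Rcc2 was 3 or more times that in WT, unlike that of Arhgef10l. Padi3, which converts arginine to citrulline, had the largest value at −1.35 ± 0.56, but with only 0.285 ± 0.31 CPM in MD1 and 0.926 ± 0.36 CPM in WT.

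Lhpp had 7 higher and 5 lower tested neighbors. Fgfr2, a fibroblast growth factor receptor needed in facial growth, overlaps Lhpp and had 107.5 ± 17 CPM in MD1 and 100.5 ± 8.4 CPM in WT (0.09 ± 0.10). Fam53b at 5.7 kb on the other side had 48.5 ± 14 CPM in MD1 and 54.6 ± 3.8 CPM in WT (−0.19 ± 0.15). Neither neighbor moved with Lhpp beyond its own spread.

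Bet1 was flanked by Gng11, a G protein subunit, at 68.5 kb (−0.03 ± 0.13) and by the collagen gene Col1a2 at 417.8 kb (−0.05 ± 0.12). Calu was flanked by Hilpda, a lipid droplet gene induced by low oxygen, at 72.6 kb (19.5 ± 8.1 CPM in MD1, 12.5 ± 2.6 CPM in WT, 0.64 ± 0.24) and by Ccdc136 at 19.2 kb (−0.01 ± 0.10). Dpy19l4 was flanked by Ints8, a subunit of the Integrator complex, at 7.1 kb (−0.09 ± 0.09), and overlapped Gm26663 (0.18 ± 0.36). Rnpc3 had Amy1 on the left and, at 400.4 kb on the right, the collagen gene Col11a1 (111 ± 2.7 CPM in MD1, 103 ± 4.4 CPM in WT, 0.10 ± 0.062). None of these passed the edgeR threshold (adjusted p from 0.496 to 0.985), and the members beside them did not pass it either.

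**Figure D4:**
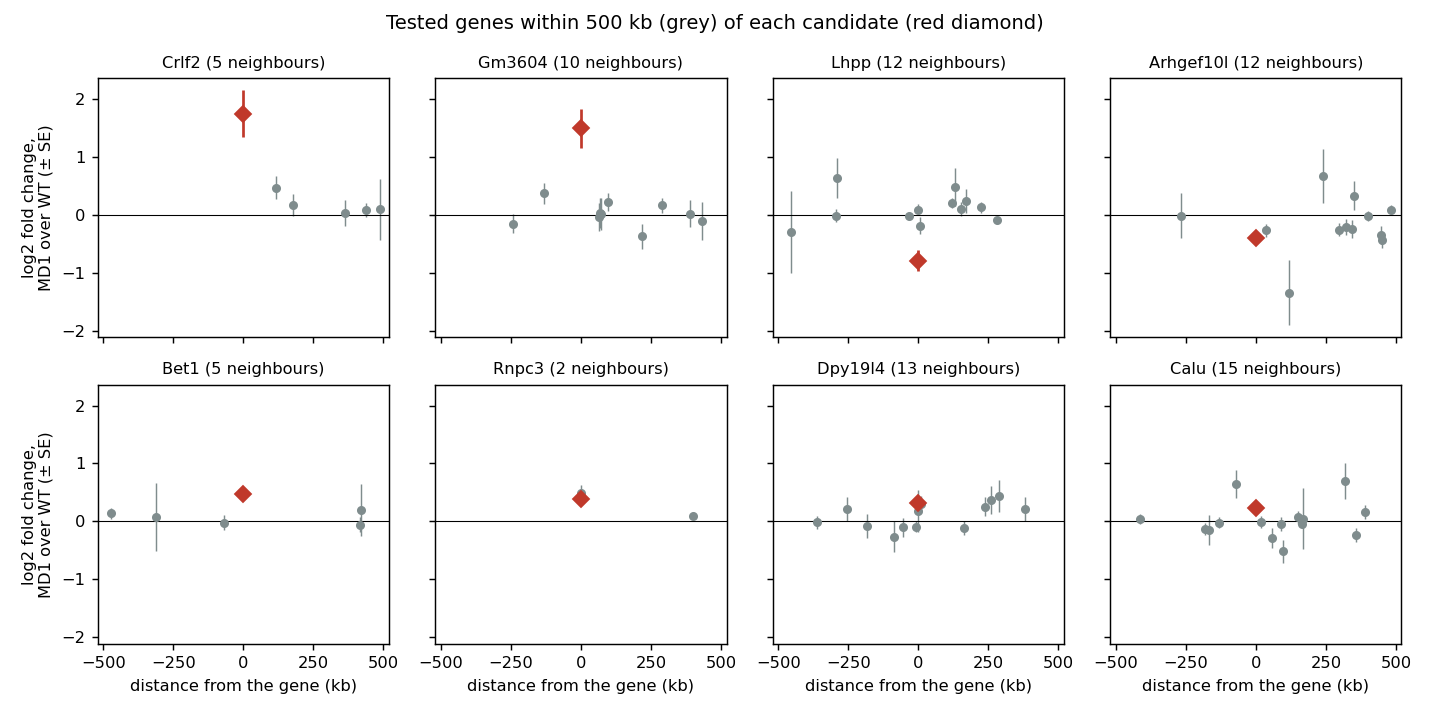
Log2 fold change, MD1 over WT (± SE), of each candidate (red diamond at 0 kb) and of the tested genes within 500 kb (grey circles), by distance in kb. Crlf2 (1.75) and Gm3604 (1.49) lie above all their neighbors. Arhgef10l (−0.41) lies inside the range of its 12 neighbors, which run from −1.35 to 0.67 with a median of −0.23.

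Imprinted genes, a class with known Smchd1 targets, were looked up in a chosen list, and those listed were not near most members. Imprinted genes that the list leaves out were not counted. The imprinted list held a gene on the same chromosome for 3 of the 8 members: Casd1 at 0.51 Mb from Bet1, Mest at 1.35 Mb from Calu and Inpp5f at 3.91 Mb from Lhpp. Casd1 had 164 ± 31 CPM in MD1 and 165 ± 7.5 CPM in WT, Mest 3050 ± 324 CPM in MD1 and 2878 ± 458 CPM in WT, and Inpp5f 70.2 ± 5.0 CPM in MD1 and 70.5 ± 3.5 CPM in WT. Their log2 fold changes were −0.01, 0.08 and −0.002, each within the spread between libraries.

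Over all 10 libraries, the autosomal genes whose log2 CPM ran most like that of a member are given as a description, since the points share the genotype difference on which the members were chosen. For Bet1 they were Yme1l1, a protease of the mitochondrial inner membrane (r = 0.952), and Appl1 (r = 0.938), and Yme1l1 was also closest to Rnpc3 (r = 0.957), followed by Esf1 (r = 0.95). Anln (r = 0.914) and again Yme1l1 (r = 0.904) were closest to Dpy19l4. Thus 3 of the 8 members had Yme1l1 among their 2 closest genes, and it had a log2 fold change of 0.32 that did not pass the edgeR test (adjusted p = 0.496). Calu ran with Mkrn3 of the imprinted Snrpn cluster (r = 0.951), which passed as higher in MD1 with a log2 fold change of 1.05 (edgeR adjusted p = 0.00507), and with Rpl17 (r = 0.925). Gm3604 ran with Gm53 (r = 0.936), which passed as well with 1.91 (edgeR adjusted p = 0.0121), and with Pias1 (r = 0.927). For Arhgef10l the closest were Tut1 (r = 0.957) and Efhd2 (r = 0.957), for Lhpp Nelfe (r = 0.957) and Acot7 (r = 0.945), and for Crlf2 Nfx1 (r = 0.961) and Aplp2 (r = 0.95).

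Among the members themselves, Arhgef10l and Lhpp ran together (r = 0.871 over 10 libraries) and against the other 6. These signs follow from the choice of members, since the 10 libraries share the genotype difference on which the members were picked. The correlations are therefore a description only. The closest pair was Dpy19l4 and Rnpc3 (r = 0.922), and the loosest among the 6 higher genes was Crlf2 and Gm3604 (r = 0.413). Crlf2 and Gm3604, which have the largest folds, were both above every WT library in MD1 replicates 1, 3 and 4, but in a different order: Crlf2 was highest in MD1 female replicate 4, where Gm3604 was the lowest of the MD1 libraries.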

How the data were processed

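RNA-seq reads of 10 frontonasal prominence libraries were trimmed (Trim Galore 0.4.4), mapped to GRCm38.p6 (HISAT2 2.0.5) and counted per gene (SeqMonk) by the authors. The authors deposited raw counts (35591 rows) and log2 RPKM values, normalized for library size and transcript length. The kit does not mark strand. Symbols turned into dates were restored in 27 rows and 49 repeated rows dropped. Columns of group averages were not used.

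Counts were tested with edgeR 4.0.16 quasi-likelihood (R 4.3.3) on 15452 autosomal genes after filterByExpr and TMM scaling, MD1 over WT without covariates, with Benjamini-Hochberg adjustment at 0.05, also for the 6 WT libraries by sex and for genotype by labelled sex. CPM are per 1000000 TMM-scaled counts, and log2 CPM used a prior count of 2. The SE given with the quasi-likelihood test was derived from it, as the absolute log2 fold change over the square root of the F statistic. It is therefore approximate. Alternatives were DESeq2 1.42.0, limma-voom and limma on log2 RPKM (limma 3.58.1), the exact test, other scaling and filters, sex as a covariate, a replicate block and leaving libraries out. Scripts were tested on simulated data. Depth ran from 4195119 to 24125084 counts, and counting error is part of the spread of the low genes. All 45 library pairs differed beyond sampling noise (chi-square per degree of freedom of at least 4.15). Members, partner, marker and imprinted lists were chosen with earlier results of these data known. Genes named are the members, Smchd1, nearest tested neighbors on each side, neighbors and partners past the threshold, the 2 partners with lowest p per list, the 2 most correlated genes and the nearest gene of the imprinted list. Padi3, Amy1, Opn1sw, Gm26663, the genes that share words with Gm3604, Ddx3y, Xist, Il7r and Tslp were added for the checks they serve. The partner list of Arhgef10l is not reported here. Exons come from GENCODE M21 and promoters from RefSeq.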

Additional observations from a re-analysis of the deposited data

Results flagged for a closer look

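Of 16 groups (8 genes in MD1 and in WT), 1 held a library far from the others. Rnpc3 in the library labelled MD1 female replicate 1 was at 60.2 CPM, while the nearest MD1 library was at 71.3 CPM, and this gap was 0.888 of the MD1 range. Chance alone marks about 1 group in 20, and the cause was not tested. That library is also the one whose Y-linked reads go against its sex label.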

How the results depend on the processing

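The direction of every member held in all 176 values from 22 alternatives per member, and 165 of these stayed on the same side of the threshold, while 11 passed it. DESeq2 raised the members past the threshold to 6 higher and 2 lower, and the exact test of edgeR to 2 higher, against 0 with the quasi-likelihood test. Leaving out 1 library gave 0 to 1 higher (Crlf2 without MD1 replicate 2, log2 fold change of 2.06, adjusted p = 0.0498) and 0 lower. The genotype effect by labelled sex gave 0 to 1 members when 1 library was left out, the 1 being Crlf2 without MD1 replicate 1 (−1.98, edgeR adjusted p = 0.0266). That setting leaves a lone library labelled MD1 female, assumed to vary like the others, and called 3531 of 16837 genes. The counts of partner genes, neighboring genes (also within 1 Mb) and members that differ between WT sexes were 0 under each alternative run. Leaving out 1 library moved Crlf2 between 1.13 and 2.06, Gm3604 between 1.32 and 1.70, Lhpp between −0.96 and −0.64 and Calu between 0.22 and 0.25. The median log2 fold change of all genes was 0.003 with TMM, −0.04 with total counts and −0.10 on the log2 RPKM.

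With the replicate number as a block, 0 members passed, and the values ran from −0.81 for Lhpp to 1.60 for Crlf2. No label says that a number marks a shared litter or batch, number 1 joins libraries of different labelled sex, and the correlations of the deviations of same-numbered libraries were 0.00168, −0.0738, 0.0497 and −0.118, so the numbers were not taken to pair the samples. Depth limits Gm3604 and Crlf2, with as few as 7 and 15 reads in a library.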

Other observations

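Csf2rb, the shared receptor chain for interleukin 3 and related cytokines, was looked up beside Crlf2 and is named here after its values were seen. It had 5.37, 0.80, 1.69 and 123 CPM in MD1 replicates 1 to 4, and WT libraries ran from 0.65 to 2.27 CPM. As with Crlf2, MD1 female replicate 4 was the highest library.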
